A study of Mus musculus with 29 samples.

Results

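The chemokines CCL17, CCL19, CCL20, CCL21, CCL22 and CCL27 guide lymphocytes and dendritic cells into, through and out of the skin. They were followed here as 10 mouse genes, the 6 ligand genes Ccl17, Ccl19, Ccl20, Ccl21a, Ccl22 and Ccl27a and the 4 receptor genes Ccr4, Ccr6, Ccr7 and Ccr10. The genes were taken by symbol, and all 10 were listed in each of 3 tables of 24543, 24453 and 24081 genes. CCL17 and CCL22 bind CCR4, a receptor of skin-homing and regulatory T cells, and are made mainly by activated dendritic cells and, under inflammatory cytokines, by keratinocytes. CCL20 binds CCR6 and draws Langerhans cell precursors and interleukin-17-producing T cells. CCL27 is a keratinocyte product that binds CCR10, whereas CCL19 and CCL21 bind CCR7 on mature dendritic cells and naive T cells and guide them into lymphatic vessels and lymph nodes.

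The libraries came from skin of mice of mixed background at postnatal days 42 to 46. In icKO mice the homeobox gene Dlx3 was deleted by a Cre that tamoxifen activates and that the keratin 14 promoter, active in basal keratinocytes, drives; the comparison mice are labelled WT. Epidermis taken 3 days after tamoxifen gave 4 WT and 4 icKO libraries from vehicle-treated skin, here called untreated, and 3 WT and 4 icKO libraries from skin given an inhibitor of STAT3 (STAT3i), a transcription factor downstream of cytokine receptors. Dermis at day 3 gave 3 libraries of each genotype, and epidermis (topical tamoxifen) and dermis (intraperitoneal tamoxifen) 1 week after tamoxifen gave 2 libraries of each genotype. The sources used here do not give the alleles of WT mice, the inhibitor's name or dose, or whether libraries came from separate mice, so p values measure the spread between these libraries, which may be technical. Values are RPKM, read density normalized to transcript length and library size. Libraries of a group are lettered a to d as names only, and the 3 tables (day 3 epidermis, day 3 dermis, week 1) were normalized separately and tested only within themselves. Differences are of log2(RPKM + 1), which understates the change of low genes, and "rose" and "fell" are used only where the adjusted p was under 0.05.

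Depth was 48942701 to 70291550 alignments per library in day 3 epidermis, 10137237 to 37252138 alignments in day 3 dermis and 37271189 to 57296317 reads at week 1. The targeted gene Dlx3 averaged 4.58 ± 3.11 RPKM in untreated WT and 1.64 ± 0.40 RPKM in untreated icKO epidermis (SD, n = 4 each), with WT library b, at 0.95 RPKM, below every icKO library. In day 3 dermis Dlx3 went against the labels, at 2.19 to 20.5 RPKM in libraries labelled WT and 1.75 to 65.9 RPKM in those labelled icKO. Day 3 epidermis also held other tissue, with a summed level of 7 skeletal muscle genes of 4319 to 11620 RPKM and of 6 fibroblast genes of 1878 to 13250 RPKM, against at most 19.95 and 90.3 RPKM in week 1 epidermis. Genotype went partly with sex in day 3 epidermis: Ddx3y without Xist was seen in 3 of 4 untreated WT and all STAT3i WT libraries, Xist without Ddx3y in 3 of 4 untreated icKO and all STAT3i icKO libraries, and untreated icKO library c held both. Some libraries were nearly alike, since the SD across genes of the log2 difference was 0.102 between untreated icKO libraries a and b and 0.0969 between STAT3i icKO libraries a and d, against 0.253 to 0.356 and 0.261 to 0.292 for the other pairs of those groups. STAT3i WT libraries a and c were the closest of their group, at 0.133. Untreated WT libraries were less alike, at 0.331 between a and b, 0.319 between c and d, and 0.434 to 0.57 for the other pairs.

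In mm10 (GENCODE M21), Ccl17 lies at chr8:94810453-94812036 and Ccl22 at chr8:94745590-94751699, both on the plus strand, and Ccl20 at chr1:83116766-83119167, plus strand. Ccl27a (chr4:41769467-41774247), Ccl19 (chr4:42754525-42756577) and Ccl21a (chr4:42772860-42773993) are on the minus strand of chromosome 4, and Ccl19 and Ccl21a lie inside the opposite-strand gene 4930578G10Rik. Among the receptors, Ccr4 is at chr9:114490316-114504916 (minus), Ccr6 at chr17:8236043-8257141 (plus), Ccr7 at chr11:99144196-99155077 (minus) and Ccr10 at chr11:101172997-101175443 (minus), inside the opposite-strand gene Cntnap1. No source used here says that counting used strand, so reads of these overlapping pairs cannot be told apart. Ccl21a has near-identical copies, and its values matched those of Gm1987 with r = 1.00 over the 15 day 3 epidermis libraries. Ccl27a has the near copy Ccl27b, at 3.06 ± 2.28 RPKM (SD, n = 4) in untreated WT epidermis. Levels of Ccl21a and Ccl27a are therefore uncertain as to the copy they came from.

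The sequences just upstream of Ccl17, Ccl20 and Ccl22 are shown because these ligands rose together in untreated icKO epidermis, and that of Ccl27a because it fell in week 1 icKO epidermis. They are RefSeq promoter windows (GRCm38.p6), given for 8 of the 10 genes, cut to the bases upstream of every GENCODE start of the gene and written 5′ to 3′ on the gene's strand. Capitals mark matches on either strand to 4 motifs, which do not overlap here: the NF-kB consensus, the STAT element TTCNNNGAA, the AP-1 element TGANTCA and the DLX core TAATT.
Ccl17 (chr8:94810203-94810452, plus strand): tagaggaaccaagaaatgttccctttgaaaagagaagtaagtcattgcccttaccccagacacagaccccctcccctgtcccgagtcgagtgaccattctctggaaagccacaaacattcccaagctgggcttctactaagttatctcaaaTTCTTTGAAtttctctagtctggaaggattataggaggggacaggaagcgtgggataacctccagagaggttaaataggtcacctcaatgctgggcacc
Ccl20 (chr1:83116516-83116765, plus strand): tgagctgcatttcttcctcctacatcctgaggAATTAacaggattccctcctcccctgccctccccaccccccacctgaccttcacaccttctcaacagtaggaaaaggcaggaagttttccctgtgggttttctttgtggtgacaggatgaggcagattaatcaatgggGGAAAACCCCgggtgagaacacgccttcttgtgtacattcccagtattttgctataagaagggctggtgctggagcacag
Ccl22 (chr8:94745434-94745589, plus strand): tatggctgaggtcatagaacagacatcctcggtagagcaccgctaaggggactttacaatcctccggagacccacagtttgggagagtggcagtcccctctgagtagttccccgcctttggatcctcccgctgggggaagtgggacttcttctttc
Ccl27a (chr4:41774248-41774426, minus strand): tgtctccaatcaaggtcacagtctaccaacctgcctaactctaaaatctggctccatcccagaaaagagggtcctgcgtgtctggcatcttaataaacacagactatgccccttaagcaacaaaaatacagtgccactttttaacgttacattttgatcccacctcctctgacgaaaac

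The Ccl20 window held 1 match to the NF-kB consensus, which 5.0% of 32851 RefSeq windows of the same 250 bases held, and 1 to the DLX core, which 25% held. The Ccl17 window held 1 STAT element, which 7.02% held. None of the 4 motifs was in the windows of Ccl22 and Ccl27a, which were cut to 156 and 179 bases. A match is a description of letters, and no match says only that these letters were not in the window.

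In untreated day 3 epidermis, 4 of the 8 tested genes rose in icKO, namely the CCR4 ligands Ccl17 and Ccl22, the CCR6 ligand Ccl20 and the receptor Ccr7, and none fell. Testing needed 1 RPKM in at least 4 libraries, which these genes met only through their icKO libraries. Without that filter they still passed, with adjusted p of 0.0147 (Ccl17), 0.0101 (Ccl22), 0.0288 (Ccl20) and 0.0185 (Ccr7). Of all 13095 genes tested, 12.8% passed in this comparison, 9.12% upwards and 3.7% downwards. WT libraries a to d held 1.51, 6.42, 0.555 and 0.398 RPKM of Ccl17, and icKO libraries a to d 19.2, 19.9, 7.64 and 11.9 RPKM. Every icKO library was above every WT library, and the highest WT library, b, was close to the lowest icKO library, c. Ccl17 rose by 2.55 ± 0.48 (log2, SE, adjusted p = 0.00692), a 6.61-fold difference of mean RPKM.

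Its neighbour Ccl22 was measured at 2.65, 8.68, 0.946 and 1.74 RPKM in WT libraries and 20.4, 20.6, 10.1 and 15.04 RPKM in icKO libraries. WT library b was again nearest to icKO library c, with no overlap between genotypes. Ccl22 rose by 2.19 ± 0.38 (log2, SE, adjusted p = 0.00465). For Ccr7, through which mature dendritic cells follow CCL19 and CCL21, the WT libraries gave 0.461, 1.47, 0.217 and 0.383 RPKM and the icKO libraries 2.51, 2.30, 1.52 and 1.98 RPKM. WT library b lay just below the lowest icKO library here too, and Ccr7 rose by 0.96 ± 0.20 (log2, SE, adjusted p = 0.00955).

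Ccl20, which keratinocytes make under interleukin-1, tumour necrosis factor and interleukin-17, gave 0.922, 1.48, 0.771 and 0.765 RPKM in WT libraries, and icKO libraries held 5.53, 4.61, 2.42 and 7.95 RPKM. WT libraries were close together and all below the icKO libraries. Ccl20 rose by 1.56 ± 0.36 (log2, SE, adjusted p = 0.0161). Its receptor gene Ccr6 reached 0.501, 0.454, 0.240 and 0.354 RPKM in WT libraries, against 1.03, 0.965, 0.648 and 1.18 RPKM with icKO. The genotypes did not overlap, but Ccr6 was too low to be tested (a gene had to reach 1 RPKM in as many libraries as the smaller group has), and without that filter its adjusted p was 0.0741.

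The other ligands gave no such difference. Ccl27a ranged from 18.1 to 22.7 RPKM in WT and from 17.6 to 27.3 RPKM in icKO libraries (log2 difference 0.19, 95% interval -0.15 to 0.53, adjusted p = 0.421). Ccl21a ranged from 15.4 to 19.9 and from 15.3 to 19.4 RPKM (log2 difference 0.07, 95% interval -0.25 to 0.38, adjusted p = 0.783). Ccl19 ranged from 9.36 to 14.6 RPKM in icKO libraries, and WT libraries held 0.684, 11.3, 13.2 and 8.64 RPKM, where library a alone was low (log2 difference 0.88 ± 0.52, SE, adjusted p = 0.264). The mean of Ccr4 was lower rather than higher in icKO, with 1.48, 0.901, 2.67 and 2.86 RPKM in WT libraries against 0.83, 0.867, 1.47 and 1.53 RPKM. The genotypes overlapped, and the difference of -0.41 ± 0.20 (log2, SE) did not pass (adjusted p = 0.17), although it did without WT library b (-0.61, adjusted p = 0.0184). Ccr10 stayed between 0.255 and 0.645 RPKM over the 15 day 3 epidermis libraries and was not tested.

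**Figure D1:**
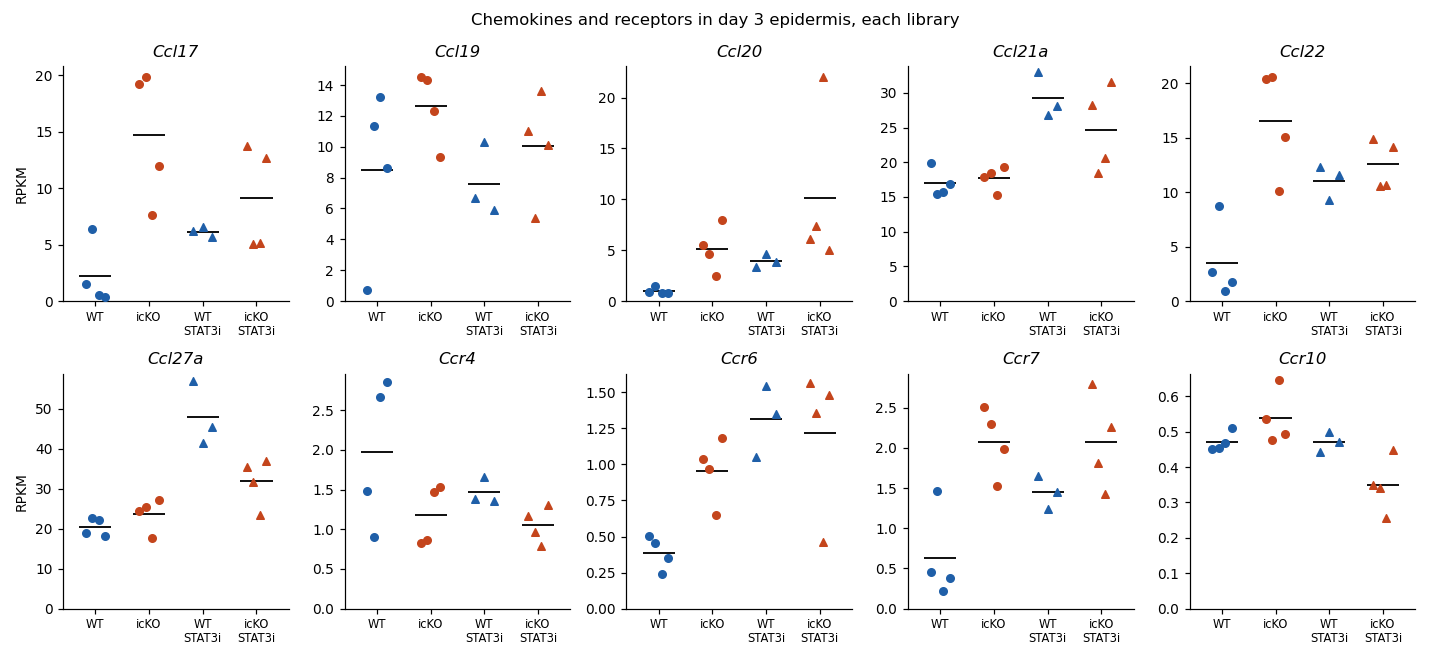
RPKM (vertical axes) of the 10 genes in each day 3 epidermis library by group (horizontal axes), with group means. Untreated icKO libraries lie above all untreated WT libraries for Ccl17, Ccl20, Ccl22, Ccr7 and the untested Ccr6. STAT3i WT libraries lie above all untreated WT libraries for Ccl27a, Ccl21a, Ccl22, Ccl20 and Ccr6. Overlap was not counted over all genes. Of these, 30.4% had an unadjusted p under 0.05 for untreated icKO against WT, and 34.9% for STAT3i against untreated in WT.

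Markers of immune and vessel cells were measured beside these rises. The summed level of 8 macrophage markers was 1102, 1451, 236.8 and 262.9 RPKM in WT libraries a to d and 888 to 1110 RPKM in icKO libraries. None of the 8 passed, but their median difference was 0.91 (log2), against 0.04 over all tested genes. Among WT libraries, b had the highest macrophage sum and the most Ccl17 and Ccl22 (6.42 and 8.68 RPKM). Library a came next in each (1.51 and 2.65 RPKM of the genes), and c and d were lowest in each. The macrophage sum of library a lay within the icKO range, while its Ccl17 and Ccl22 were below those of every icKO library. Of 8 genes of mature dendritic cells 3 rose (Fscn1, Il4i1 and Cd83), with sums of 40.1 to 55.1 RPKM in WT and 52.2 to 70.6 RPKM in icKO libraries, and of 6 Langerhans cell markers 1 rose. The Langerhans list holds Cd74 and the MHC class II gene H2-Aa beside the langerin gene Cd207. Its week 1 sum was 1678 to 2135 RPKM in WT dermis and 689.4 to 895.5 RPKM in WT epidermis, so it is not particular to Langerhans cells. Of 11 tested T cell markers 2 rose, and they were the regulatory T cell genes Foxp3 (0.589 ± 0.553 and 2.15 ± 0.966 RPKM, SD, n = 4 each) and Ctla4, named after their values were seen. Of 6 tested dendritic cell markers 1 rose, and their median was 0.61 (log2). The medians of the mature dendritic, Langerhans and T cell lists were 0.50, 0.36 and 0.28, and that of blood endothelium was -0.055. Of 5 tested lymphatic endothelium markers 2 rose, with sums of 31.2 to 49.6 RPKM in WT and 59.0 to 74.9 RPKM in icKO libraries, and Lyve1 went from 19.5 ± 9.28 to 48.2 ± 7.495 RPKM (SD, n = 4 each) and made up most of that gap, the list median being 0.12 (log2). Different numbers of cells of a type and different RNA per cell cannot be told apart in such bulk samples, and the part of these cell types in the rises was not tested.

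With the 3 closest pairs averaged, an alternative chosen after the data were seen, none of the 10 genes passed (41 genes in all did), with adjusted p of 0.0786 for Ccl17, 0.1 for Ccl20, 0.0654 for Ccl22 and 0.0862 for Ccr7 and differences of 2.39, 1.54, 2.08 and 0.91. In a fit of these 8 libraries alone only Ccl20 passed (adjusted p = 0.0625 for Ccl17, 0.0632 for Ccl22 and 0.0684 for Ccr7), and Ccl20 did not pass with a term for sex (0.0833) or without icKO library a (0.0577), b (0.0516) or d (0.0505). After quantile normalization the same 4 genes passed, while 44.7% of all calls were upward in place of 71.1%.

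**Figure D2:**
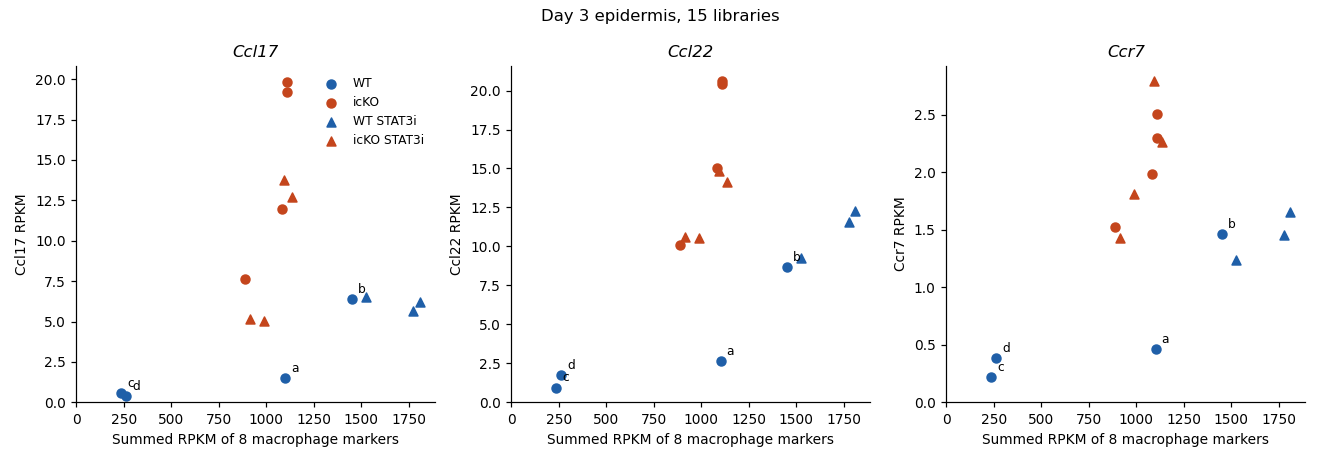
RPKM of chemokine genes (vertical axes) against the summed RPKM of 8 macrophage markers (horizontal axes) in the 15 day 3 epidermis libraries, by group. Untreated WT libraries c and d are low on both axes, and among untreated WT libraries b is highest on both. Untreated WT library a lies within the untreated icKO range of the marker sum and below all untreated icKO libraries for each gene shown. STAT3i WT libraries have sums of 1524 to 1811 RPKM and hold 5.63 to 6.54 RPKM of Ccl17, below every untreated icKO library. Their Ccl22 and Ccr7 overlap untreated icKO.

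Other chemokine genes, and genes of signals known to induce them, were counted in the same comparison. Of 22 other chemokine ligand genes tested, 4 rose and 0 fell: Cxcl16, the CXCR6 ligand (19.02 ± 5.56 RPKM in WT and 40.5 ± 11.03 RPKM in icKO, SD, n = 4 each, adjusted p = 0.00624), and the monocyte and eosinophil attractants Ccl7 (log2 difference 1.08), Ccl11 (0.71) and Ccl2 (1.19). Their median difference was 0.38, against 0.04 over all tested genes. Of 14 other receptor genes tested 3 rose, among them Cxcr2 and Ccr2, and 2 fell, the atypical receptor genes Ackr4 and Ackr1. Ackr4, whose product scavenges CCL19, CCL20 and CCL21, went from 27.2 ± 9.28 RPKM in WT to 14.3 ± 1.51 RPKM in icKO (log2 difference -0.83 ± 0.17, SE, adjusted p = 0.0111). Of 17 tested inputs to keratinocyte chemokine expression, 9 rose and 0 fell. Those of smallest p were the interleukin-1 genes Il1b (0.834 ± 0.448 RPKM in WT, 3.73 ± 0.83 RPKM in icKO, adjusted p = 0.00125) and Il1a (3.49 ± 0.441 and 6.89 ± 1.86 RPKM, adjusted p = 0.00465), the interleukin-4 receptor gene Il4ra and the NF-kB subunit gene Nfkb2.

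The STAT3 inhibitor was compared with vehicle within each genotype. In WT epidermis 6 of the 9 tested genes rose with STAT3i, namely Ccl27a, Ccl21a, Ccr6, Ccl22, Ccl20 and Ccr7, and none fell, where 18.8% of 13211 genes passed, 10.9% upwards and 7.86% downwards. Ccr6, Ccl20 and Ccr7 met the filter on low values only through the STAT3i libraries. Without it Ccr6 still passed (adjusted p = 0.0227), and Ccl20 and Ccr7 did not (0.0562 and 0.0795). Ccl27a, the keratinocyte ligand of CCR10, was measured at 18.9, 22.7, 22.2 and 18.1 RPKM in untreated and 56.9, 41.4 and 45.5 RPKM in STAT3i WT libraries. All STAT3i libraries were well above all untreated libraries, and Ccl27a rose by 1.18 ± 0.17 (log2, SE, adjusted p = 0.00206), a 2.34-fold difference of means.

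Ccl21a, a CCR7 ligand gene, went from 19.9, 15.4, 15.7 and 16.8 RPKM in untreated to 33.0, 26.9 and 28.1 RPKM in STAT3i WT libraries, without overlap (0.76 ± 0.16, log2, SE, adjusted p = 0.00928). Ccl22 reached 12.3, 9.25 and 11.6 RPKM with STAT3i and rose by 1.69 ± 0.41 (log2, SE, adjusted p = 0.0152). The lowest of these STAT3i libraries was just above untreated WT library b, at 8.68 RPKM, and far above the other untreated libraries. Ccl20 reached 3.35, 4.66 and 3.84 RPKM (adjusted p = 0.0315) and its receptor gene Ccr6 1.05, 1.54 and 1.35 RPKM (adjusted p = 0.0133), in both cases above all untreated WT libraries. Ccr7, at 1.66, 1.24 and 1.46 RPKM, overlapped untreated library b and rose by 0.64 ± 0.21 (log2, SE, adjusted p = 0.0491). Ccl17, at 6.18, 6.54 and 5.63 RPKM, overlapped library b too. Its difference of 1.49 ± 0.52 (log2, SE) did not pass (adjusted p = 0.057), although it did without that library (2.01, adjusted p = 0.00343) and with a pseudocount of 0.1 (0.045).

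Myeloid markers were higher in the same STAT3i WT libraries. Of the 8 macrophage markers 7 rose, with sums of 1524 to 1811 RPKM. Of the 6 genes of the Langerhans list, which is not particular to these cells, 5 rose. Their sums were 1277 to 2950 RPKM in untreated and 4208 to 4938 RPKM in STAT3i libraries. Of 8 genes of mature dendritic cells 5 rose, and of 6 tested dendritic cell markers 3. Cd207, the gene of the Langerhans cell lectin langerin, went from 15.9 ± 1.92 RPKM (SD, n = 4) to 23.8 ± 1.32 RPKM (SD, n = 3). Of 22 other ligand genes 6 rose and 0 fell, with Ccl11, Ccl7, Pf4 and Cxcl16 of smallest p, and of 14 other receptor genes 4 rose, among them Xcr1, Cxcr3 and Cxcr4, and Cxcr5 fell. Of 17 inputs 5 rose and 1, Il1a, fell. Of 4 keratinocyte markers 0 rose and 0 fell, with a median difference of -0.35 (log2). Their sums were 5863 to 7701 RPKM in untreated and 5321 to 5740 RPKM in STAT3i WT libraries. The part of myeloid cells and keratinocytes in the rises of the chemokine genes was not tested.

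Only Ccl27a passed with the closest pairs averaged (1.14, adjusted p = 0.0447), only Ccl27a and Ccr6 without STAT3i library a, and only Ccl21a and Ccl27a without library c. In a fit of the compared groups alone Ccl22 (adjusted p = 0.0962) and Ccr7 (0.137) did not pass. Ccl20 and Ccr7 did not pass without the filter on low values (adjusted p = 0.0562 and 0.0795) or without STAT3i library b (0.0912 and 0.0779), nor did they without untreated library c (0.0676 and 0.121) or d (0.0683 and 0.109), nor Ccr7 without library a (0.0759) or after quantile normalization (0.0817). Upward calls were 46.1% of all after quantile normalization, in place of 58.1%.

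In icKO epidermis none of the 9 tested genes passed with STAT3i against vehicle, where 5.56% of 13074 genes did, 2.81% upwards and 2.75% downwards. At an unadjusted p under 0.05 there were 25% of all genes and 2 of the 9, Ccl21a (0.43 ± 0.15, log2, SE, adjusted p = 0.0987) and Ccl27a (0.41 ± 0.16, adjusted p = 0.132). For Ccl27a the untreated icKO libraries gave 24.6, 25.5, 17.6 and 27.3 RPKM and the STAT3i icKO libraries 35.4, 31.7, 23.4 and 37.0 RPKM. STAT3i library c alone overlapped the untreated libraries, and without it Ccl27a passed (0.54, adjusted p = 0.0472). Ccl17 reached 13.8, 5.02, 5.14 and 12.7 RPKM with STAT3i, with the closest libraries a and d high and b and c low, and the groups overlapped (log2 difference -0.67, 95% interval -1.69 to 0.36). Ccl22 had a difference of -0.34 (95% interval -1.14 to 0.47) and Ccr7 of -0.01 (95% interval -0.43 to 0.41). Of the other ligand genes Ccl1 alone rose, and of the other receptor genes Cxcr5 alone fell.

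Whether the inhibitor's difference depended on genotype was tested as an interaction, in which 0 of the 9 tested genes passed and 2.14% of 13563 genes did, 1.41% with a negative and 0.73% with a positive sign. At an unadjusted p under 0.05 there were 24% of all genes and 5 of the 9, all negative, that is with a less positive STAT3i difference in icKO than in WT. They were Ccl22 (-2.03 ± 0.55, log2, SE, adjusted p = 0.0619), Ccl27a (-0.77 ± 0.23, adjusted p = 0.0754), Ccl17 (-2.16 ± 0.70, adjusted p = 0.0905), Ccr6 (-0.58 ± 0.23, adjusted p = 0.149) and Ccr7 (-0.65 ± 0.29, adjusted p = 0.187). Without untreated WT library b, Ccl17, Ccl22, Ccl27a and Ccr7 passed (adjusted p = 0.011, 0.00362, 0.0439 and 0.0218), and without library a Ccl22 did (0.0493). With the closest pairs averaged no gene of any kind passed, and after quantile normalization 51.3% of calls were positive in place of 34.1%.

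Under STAT3i, Ccl27a alone of 9 tested genes passed between icKO and WT, and fell, where 34% of 13241 genes passed, 19.9% upwards and 14.1% downwards. The STAT3i icKO libraries, at 23.4 to 37.0 RPKM, were all below the STAT3i WT libraries, at 41.4 to 56.9 RPKM (-0.58 ± 0.17, log2, SE, adjusted p = 0.0179). Ccl20 reached 6.08, 7.38, 22.05 and 5.004 RPKM in icKO libraries a to d. All 4 were above the WT libraries and library c was far above the others, but its difference of 0.95 ± 0.39 (log2, SE) did not pass (adjusted p = 0.0727) unless icKO library d was left out (0.0404). Intervals for Ccl17 (-0.72 to 1.5), Ccl22 (-0.71 to 1.03) and Ccr7 (-0.14 to 0.76) included 0. The untreated and STAT3i comparisons of genotype use different libraries, whereas STAT3i against vehicle within WT shares its untreated WT libraries with the untreated comparison of genotype.

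Among other genes Ackr4 fell under STAT3i as well (26.03 ± 1.77 RPKM in WT, SD, n = 3, and 9.83 ± 0.784 RPKM in icKO, SD, n = 4, adjusted p = 0.000312), and Il1a rose (2.09 ± 0.171 and 7.66 ± 0.511 RPKM, adjusted p = 3.58e-05). Of 22 other ligand genes 3 rose, among them Cxcl10 and Cxcl16, and 2 fell; of 16 other receptor genes 2 rose and 2 fell; of 18 inputs 5 rose and 1 fell. The macrophage and Langerhans sums, at 914.5 to 1138 and 1921 to 2664 RPKM in STAT3i icKO libraries, lay below those of STAT3i WT libraries, and the keratinocyte sum above (10940 to 14770 against 5321 to 5740 RPKM). Of 6 fibroblast markers 4 fell, with sums of 2598 to 3799 RPKM in STAT3i icKO and 8754 to 10580 RPKM in STAT3i WT libraries, and the part of these cell types in the fall of Ccl27a was not tested. The fall of Ccl27a did not pass without STAT3i WT library a (-0.45, adjusted p = 0.0948), with the closest pairs averaged (-0.60, adjusted p = 0.0792) or with a term for sex (-0.92, adjusted p = 0.0793), which in these 7 libraries cannot be told apart from genotype.

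**Figure D3:**
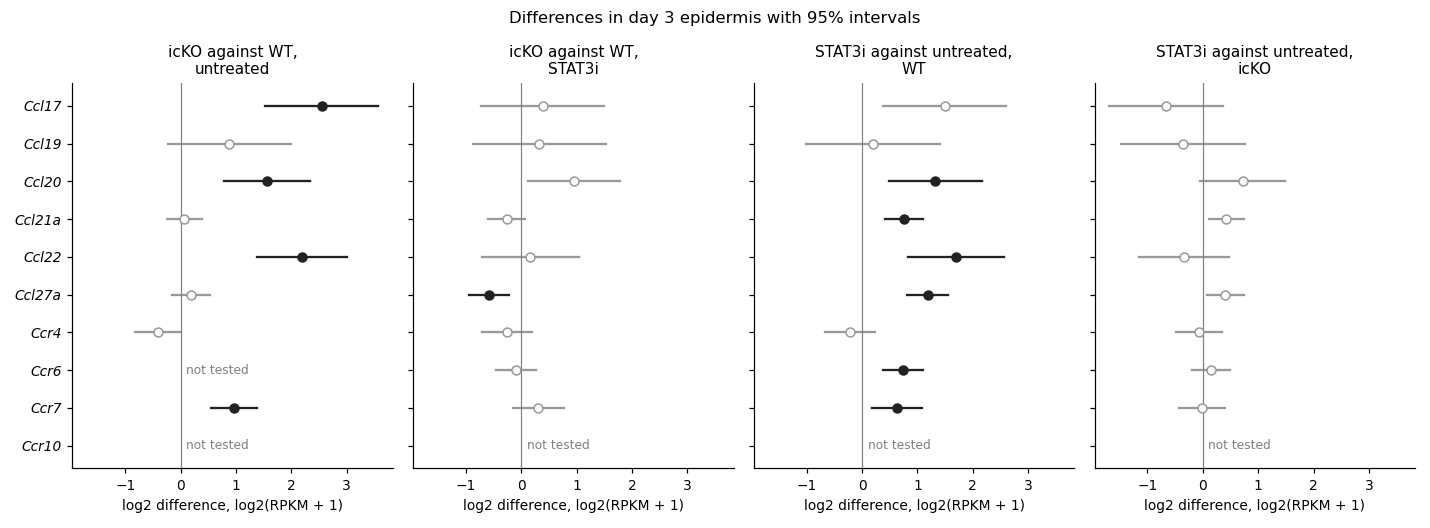
Difference of log2(RPKM + 1) (horizontal axes) with its 95% interval for each tested gene in comparisons of day 3 epidermis; filled points passed at an adjusted p under 0.05. For icKO against WT 4 genes passed untreated, all upwards, and 1 under STAT3i, downwards, where 12.8% and 34% of all tested genes passed. For STAT3i against vehicle 6 passed in WT and 0 in icKO, where 18.8% and 5.56% of all tested genes passed. In the interaction 0 of the 9 tested genes passed, and 2.14% of all tested genes did.

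The genes whose log2(RPKM + 1) was most like each member over the 15 day 3 epidermis libraries, among 13563, are given as a description, since all pairs share groups and closely alike libraries. For Ccl17, Ccl22 and Ccr7 they were the same 2 genes, Tarm1, a receptor gene of myeloid cells, and Mmp12, the macrophage elastase gene (r = 0.968 to 0.989). Ccl27a was most like Hps1 (r = 0.950) and Ddx41 (r = 0.939), and Ccl20 most like Rasal1 (r = 0.915) and Eno2 (r = 0.910). The closest genes of Ccr4 were Marveld2, which codes for the tight junction protein tricellulin (r = 0.949), and Ptpn13 (r = 0.942), and those of Ccr6 were the myeloid kinase gene Fgr (r = 0.965) and Ptpra (r = 0.959). Ccl19 was most like Mthfsd and Myl6 (r = 0.879 and 0.876).

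In day 3 dermis none of the 8 tested genes passed between libraries labelled icKO and WT, and of all 13017 genes 0% did. At an unadjusted p under 0.05 there were 3 of the 8, Ccl27a, Ccl22 and Ccr4, and 12.6% of all genes. Libraries labelled WT held 259.1, 139.1 and 354.8 RPKM of Ccl27a and those labelled icKO 116.5, 85.3 and 119.6 RPKM, without overlap (-1.14 ± 0.36, log2, SE, adjusted p = 0.375). Ccl22 went from 12.9, 13.9 and 40.9 RPKM to 4.28, 8.66 and 9.79 RPKM (adjusted p = 0.389), also without overlap, as did Ccr7, from 2.59, 2.43 and 3.55 RPKM to 0.801, 1.57 and 2.31 RPKM (adjusted p = 0.397). Ccl17 went from 15.2, 10.8 and 110.1 RPKM to 2.53, 3.29 and 11 RPKM (adjusted p = 0.396), and the library labelled WT c was far above the rest. All 8 differences were negative, from -0.59 to -2.29, and the macrophage, Langerhans and dendritic cell lists had medians of -1.27, -1.30 and -1.42, against -0.01 over all tested genes. Markers of hair shaft, melanocytes and skeletal muscle had medians of 3.77, 2.86 and -1.53, although no gene passed. The keratinocyte sum was 7377 to 14050 RPKM in libraries labelled WT and 6662 to 19330 RPKM in those labelled icKO. In week 1 WT dermis it was 2053 to 2765 RPKM. Keratinocyte RNA was thus present in these day 3 dermis libraries, and its part in their Ccl27a levels was not tested. The summed level of 8 hair shaft genes was 4.47, 1767 and 1.22 RPKM in libraries a to c labelled WT and 6684, 8111 and 1.87 RPKM in those labelled icKO, and the 3 libraries with high sums also had the highest Dlx3, at 20.5 to 65.9 RPKM. Library c labelled WT was the only one of the 6 with Ddx3y in place of Xist. The part of hair, other tissue and sex in these differences was not tested. Without library c labelled icKO, which stood apart from its group, 3192 genes passed, among them Ccl19 (-1.61, adjusted p = 0.0267) and Ccr7 (-0.83, adjusted p = 0.0499).

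At 1 week, WT epidermis and dermis were compared. Of 7 tested genes 6 passed, where 59.3% of 13107 genes did, 25.5% higher in epidermis and 33.9% higher in dermis: Ccl27a and Ccl20 were higher in epidermis, and Ccl21a, Ccl19, Ccl17 and Ccl22 were higher in dermis. Of these WT libraries, Ccl21a, Ccl19 and Ccl17 reached 1 RPKM in dermis only and Ccl20 in epidermis only. Each met the filter on low values through that tissue alone, and each also passed without the filter. Epidermis held 523.1 and 405.5 RPKM of Ccl27a and dermis 134.8 and 138.5 RPKM (1.75 ± 0.27, log2, SE, adjusted p = 0.00097). It was the highest of the 10 genes in WT epidermis, where the next, Ccr4, averaged 6.87 RPKM. Ccl20 stood at 2.44 and 4.99 RPKM in epidermis and 0.179 and 0.284 RPKM in dermis (adjusted p = 0.00234).

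The CCR7 ligands were low in epidermis and high in dermis. Ccl21a went from 0.214 and 0.242 RPKM in WT epidermis to 187.9 and 188.9 RPKM in dermis (adjusted p = 1.59e-07), an 827-fold difference of means, and was the highest of the 10 genes there. Ccl19 went from 0.353 and 0.105 RPKM to 75.2 and 32.3 RPKM (adjusted p = 5.08e-05). Of 5 tested lymphatic endothelium markers all 5 were higher in dermis, as were 13 of 23 other ligand genes, those of smallest p being Ccl11, Ccl8, Ccl5 and Cxcl12. Ccl17 went from 0.076 and 0.11 RPKM in epidermis to 6.52 and 6.24 RPKM in dermis (adjusted p = 0.00587). Ccl22 had a smaller difference, with 2.32 and 2.11 against 3.14 and 4.14 RPKM (adjusted p = 0.0298), and did not pass after quantile normalization (0.311) or without WT epidermis library a (0.0907) or b (0.142) or dermis library b (0.16). Quantile normalization moved the median of all genes from -0.07 to 0.11 and the share of calls higher in epidermis from 42.9% to 55.2%. Tissue and route of tamoxifen cannot be told apart in this comparison.

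In week 1 epidermis 3 of 6 tested genes passed between icKO and WT: Ccl27a fell, and Ccl17 and Ccl21a rose. Ccl17 and Ccl21a reached 1 RPKM in icKO libraries only, so they met the filter on low values through icKO alone. Without that filter Ccl21a still passed (adjusted p = 0.0153) and Ccl17 did not (0.137). Of all 11793 genes 55.3% passed as well, 43.7% downwards and 11.7% upwards, and the median of all genes was -0.50 (log2), so that differences are to be read against it. After quantile normalization that median was -0.05 and 47.4% of calls were upward, in place of 21.1%. WT libraries held 523.1 and 405.5 RPKM of Ccl27a and icKO libraries 48.1 and 27.8 RPKM, a 12.2-fold lower mean (-3.62 ± 0.30, log2, SE, adjusted p = 0.0022; -3.69 after quantile normalization, adjusted p = 0.00355). Of its transcripts NM_011336 made up at least 85.2% in every week 1 library.

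The dendritic cell ligand gene Ccl17 went from 0.076 and 0.11 RPKM in WT to 1.35 and 9.64 RPKM in icKO epidermis. Both icKO libraries were above both WT libraries but far apart (2.19 ± 0.70, log2, SE, adjusted p = 0.0471), and Ccl17 did not pass after quantile normalization (2.43, adjusted p = 0.0545) or without the filter on low values (0.137). Ccl21a went from 0.214 and 0.242 RPKM in WT to 1.75 and 1.72 RPKM in icKO epidermis (1.16 ± 0.12, log2, SE, adjusted p = 0.003), still far under the 187.9 RPKM or more of dermis. Ccl22 showed 2.32 and 2.11 RPKM in WT against 1.60 and 2.05 RPKM in icKO (-0.19, adjusted p = 0.361; 0.34 after quantile normalization). Ccl20 overlapped between genotypes, at 2.44 and 4.99 RPKM and at 1.88 and 4.71 RPKM (-0.16, adjusted p = 0.764; 0.38 after quantile normalization). Ccr4 showed 7.24 and 6.49 RPKM in WT against 13.9 and 3.01 RPKM in icKO, with icKO library a above and b below WT (adjusted p = 0.98), so that its sign depended on which was left out. Ccr10, the CCL27 receptor gene, gave 0.408 and 0.395 RPKM in WT libraries, against 0.201 and 0.0668 RPKM with icKO, too low to be tested.

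Cell markers moved beside these values. All 6 Langerhans cell markers fell, Cd207 from 43.8 ± 6.36 to 1.34 ± 1.33 RPKM (SD, n = 2 each), and of 9 tested T cell markers 6 fell and 1 rose, with Cd3e going from 9.96 ± 0.0856 to 1.69 ± 1.51 RPKM. Of 7 macrophage markers 5 rose, with sums of 13.4 to 16.1 RPKM in WT and 59.8 to 242.8 RPKM in icKO. Of 6 lymphatic endothelium markers only 2 were tested, and both rose, Lyve1 from 0.114 ± 0.0236 to 1.51 ± 0.240 RPKM. The sum of that list went from 0.62 to 0.93 RPKM in WT to 7.56 to 18.05 RPKM in icKO, so Lyve1 was a small part of it. The keratinocyte sum, at 9912 to 10640 RPKM in WT and 7991 to 11540 RPKM in icKO, overlapped, with 1 of 4 markers up and 1 down. The median difference of the 4 was -1.28 (log2), against -0.50 over all tested genes. The part of the other cell types in these differences was not tested. Without either WT library no gene of any kind passed, the lone WT library being assumed to vary like the icKO pair, and Ccl27a then had adjusted p of 0.0736 and 0.0594. Without icKO library a Ccl19 and Ccr4 passed too, and without icKO library b Ccl20 and Ccr4, on the same assumption for the lone icKO library.

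Other chemokine genes of week 1 icKO epidermis were counted as well. Of 23 other ligand genes 13 rose and 3 fell, with a median difference of 2.80. Those of smallest p were the T cell and monocyte attractants Ccl5 (log2 difference 1.67) and Ccl4 (0.0292 ± 0.000629 RPKM in WT, 20.5 ± 10.6 RPKM in icKO, SD, n = 2 each), the monocyte attractant Ccl8 (4.56 ± 0.780 and 238.7 ± 160.2 RPKM) and Cx3cl1, which fell (-1.06). Of 6 other receptor genes Cxcr2, the receptor of neutrophil attractants, and Ccr1 rose, and Ackr4 and Ackr3 fell. Ackr4 went from 49.5 ± 9.16 RPKM in WT to 9.49 ± 3.21 RPKM in icKO (adjusted p = 0.00367). Of 18 inputs 3 rose and 7 fell. Il1a rose (1.84 ± 0.233 and 13.5 ± 3.66 RPKM, adjusted p = 0.00281), as did the epithelial cytokine gene Tslp (5.57 ± 0.191 and 37.6 ± 21.8 RPKM, adjusted p = 0.00792), while the interleukin-1 receptor gene Il1r1 and Irf1 fell.

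In week 1 dermis Ccr4 rose and Ccl27a fell among 6 tested genes, where 49.3% of 12738 genes passed, 40.9% downwards and 8.41% upwards. The median over all genes was -0.38, and 0.00 after quantile normalization, when 49.6% of calls were upward in place of 17%. Ccr4, the receptor gene for CCL17 and CCL22, went from 8.35 and 8.56 RPKM in WT to 20.1 and 26.7 RPKM in icKO libraries, clear of each other (1.35 ± 0.17, log2, SE, adjusted p = 0.00238). T cell markers, which include the main bearers of CCR4, had sums of 23.7 to 25.7 RPKM in WT and 19.9 to 21.4 RPKM in icKO, and the regulatory T cell gene Foxp3 went from 0.258 ± 0.00318 to 0.292 ± 0.0492 RPKM (SD, n = 2 each). The macrophage sum was 724.3 to 877.9 RPKM in WT and 1093 to 1334 RPKM in icKO, with 3 of 7 markers up, and its part in the rise of Ccr4 was not tested.

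In the same dermis libraries Ccl27a went from 134.8 and 138.5 RPKM in WT to 97.9 and 73.1 RPKM in icKO, without overlap (-0.69 ± 0.17, log2, SE, adjusted p = 0.0152). Keratinocyte markers fell with it, 4 of 4, from a sum of 2053 to 2765 RPKM to 538.5 to 723.3 RPKM, as did Ccl27b (adjusted p = 0.00913). All 8 hair shaft markers fell too, from a sum of 79.8 to 86.04 RPKM to 2.18 to 3.81 RPKM, as did all 5 blood endothelium markers, from 209.5 to 217.2 RPKM to 86.05 to 96.2 RPKM, and of 7 tested genes of mature dendritic cells 5 fell and 1 rose. Their part in the fall of Ccl27a and the rise of Ccr4 was not tested. Ccl21a and Ccl19 gave 213.0 and 196.4 RPKM and 53.4 and 87.6 RPKM in icKO, and did not pass (adjusted p = 0.435 and 0.369). Ccl17 (adjusted p = 0.349) and Ccl22 (0.135) did not pass either, although Ccl22 did after quantile normalization (0.81, adjusted p = 0.017), Ccl17 without icKO library a (0.71, adjusted p = 0.048) and Ccl19 without WT library a (1.06, adjusted p = 0.0171), where the lone library left was assumed to vary like the other genotype's pair. WT library a, with 75.2 RPKM of Ccl19 against 32.3 RPKM in b, was the only week 1 library with Xist in place of Ddx3y, and the part of sex was not tested. In a fit of all 8 week 1 libraries neither Ccr4 (0.0653) nor Ccl27a (0.0726) passed, and Ccl27a did not without the filter on low values (0.0672) or without icKO library b (-0.48, adjusted p = 0.0978). Of 23 other ligand genes 6 rose and 3 fell, of 9 other receptor genes 2 rose and 4 fell, and of 17 inputs 1, Tslp, rose and 16 fell.

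The difference between icKO and WT was itself compared between week 1 tissues, where tissue and route of tamoxifen cannot be told apart. Dlx3 averaged 4.48 RPKM in WT and 1.64 RPKM in icKO epidermis, and 4.01 RPKM in WT and 0.154 RPKM in icKO dermis. Of 7 tested genes 2 passed, where 32.5% of 13535 genes did, 15.3% with a positive and 17.2% with a negative sign. Epidermis minus dermis, the Ccl27a difference was -2.93 ± 0.38 (log2, SE, adjusted p = 0.00242) and that of Ccl21a 1.04 ± 0.18 (adjusted p = 0.00593). For Ccr4 it was -1.38 ± 0.73 (adjusted p = 0.184), although Ccr4 passed in dermis and not in epidermis. Ccl17 had 1.88 ± 0.87 (adjusted p = 0.137), and passed with a pseudocount of 0.1 (0.0346). Without icKO epidermis library a both Ccl17 (2.97, adjusted p = 0.00122) and Ccr4 (-2.32, adjusted p = 0.000671) passed. Of 26 other ligand genes 7 had a more positive difference in epidermis, with Ccl4, Ccl8 and Cxcl2 of smallest p, and 1 a more negative one.

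**Figure D4:**
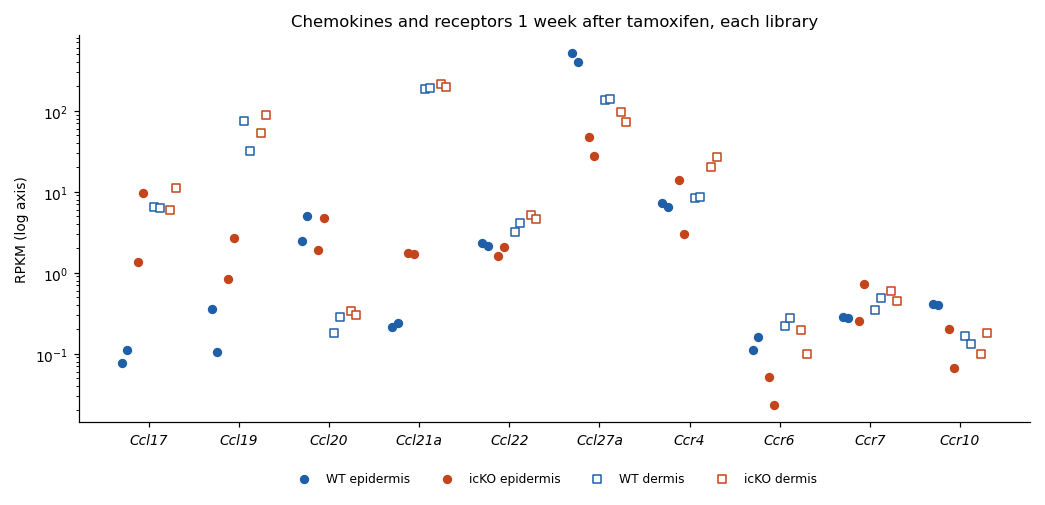
RPKM (vertical log axis) of the 10 genes in each week 1 library, by tissue and genotype. Ccl21a and Ccl19 are high in dermis, and Ccl27a is highest in WT epidermis, at 405.5 and 523.1 RPKM, and lowest in icKO epidermis.

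Ccl27a had the highest mean of the 6 ligands in 8 of the 10 groups, the exceptions being both week 1 dermis groups, where Ccl21a was higher. In day 3 epidermis its groups ran from untreated WT (20.5 ± 2.30 RPKM, SD, n = 4) over untreated icKO (23.7 ± 4.24 RPKM, n = 4) and STAT3i icKO (31.9 ± 6.05 RPKM, n = 4) to STAT3i WT (48.0 ± 8.04 RPKM, n = 3). Neighbours at the low end overlapped, and STAT3i WT stood clear of all other groups. At week 1 the order ran from icKO epidermis over icKO dermis and WT dermis to WT epidermis, with no overlap between neighbours.

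**Figure D5:**
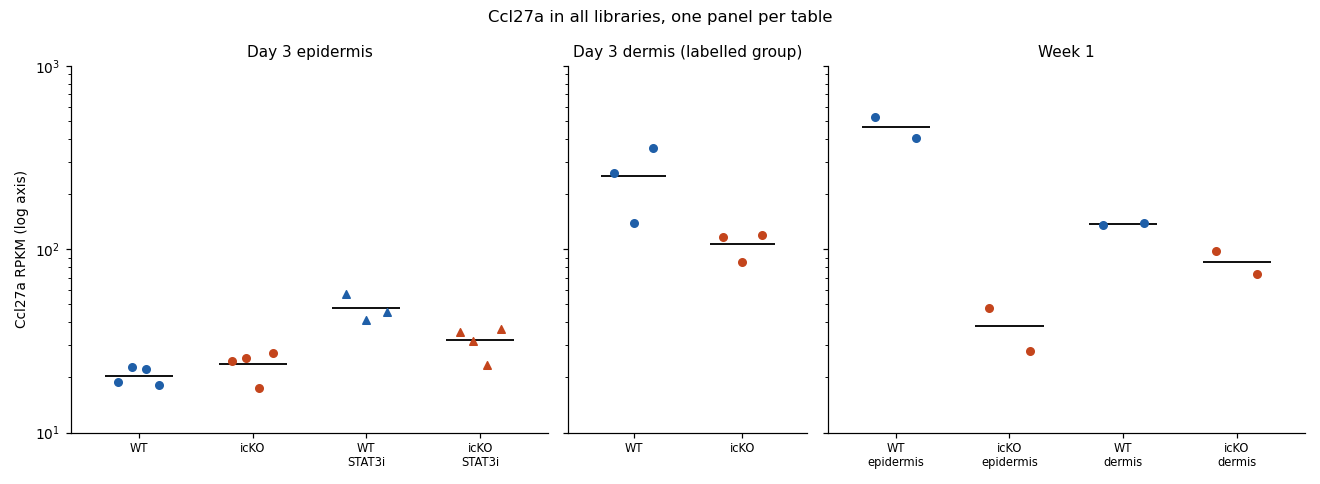
Ccl27a RPKM (vertical log axis) in all 29 libraries, with a panel for each separately normalized table. Week 1 WT epidermis lies at 405.5 and 523.1 RPKM and week 1 icKO epidermis at 27.8 and 48.1 RPKM.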

How the data were processed

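Per the submitters' processing notes, reads were processed with TopHat2 2.1.0, Partek and mm10, and the deposited tables hold RPKM, per the file headers, by gene for day 3 epidermis and by RefSeq transcript for day 3 dermis and week 1. Per the labels, cDNA came from a NEBnext kit and libraries from a NuGen kit. The deposited tables also hold other values, the alignments or reads per library given here as depth. Transcripts were summed per gene after 832 and 507 exact duplicates were dropped. Columns name a group but no replicate number, and the genotype field of 2 of 29 samples (week 1 epidermis) disagreed with the title, which was followed.

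The test was limma 3.58.1 (R 4.3.3, empirical Bayes with trend) on log2(RPKM + 1), for genes that reached 1 RPKM in a number of libraries no lower than the size of the smaller group. A single model held all 15 day 3 epidermis libraries, a second the week 1 tissue comparisons, and each other comparison had its own. Adjustment was Benjamini-Hochberg over every tested gene. The procedure was tested on simulated data. Alternatives were a pseudocount of 0.1, no filter, quantile normalization, each library left out, other fits, a sex term and averaged closest pairs. The 10 genes and all lists were chosen with earlier results of these data known. Named by rule were the 10 genes, Dlx3, up to 4 genes of smallest p per chemokine or input list, up to 3 genes per marker list, and the 2 most alike genes.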

Additional observations from a re-analysis of the deposited data

Results flagged for a closer look

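Ccl20 in STAT3i icKO epidermis had a library far from the others: library c held 22.05 RPKM and the other 3 held 5.004 to 7.38 RPKM. Of 30 sets of 4 libraries (a gene in a group) examined for such a gap, chance gives about 1 in 20. The icKO difference of Ccl27a, epidermis minus dermis at week 1, was -2.93 (log2) by the interaction test, and that of Ccl21a was 1.04. Both rest on 2 libraries per group, and in both tissue cannot be told apart from route of tamoxifen.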

How the results depend on the processing

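No paired analysis was possible because the table columns carry no replicate numbers. The number of the 10 genes past the threshold changed by over 1.5 times as follows. For untreated icKO against WT the 4 became 1 in a fit of the compared groups alone and 0 with closest pairs averaged, an alternative chosen after the data were seen. For icKO against WT under STAT3i the 1 became 0 with a sex term and 0 with averaged pairs. For STAT3i in icKO the 0 became 1, Ccr10 (adjusted p = 0.0352), without the filter on low values. For STAT3i in WT the 6 became 1 with averaged pairs. In week 1 dermis the 2 became 1 without the filter and 0 in a fit of all 8 week 1 libraries. Leaving out each library in turn gave 3 to 5 for untreated icKO, where 461 to 3091 of all genes passed. It gave 0 to 2 under STAT3i (2976 to 4076 of all genes) and 0 to 1 for STAT3i in icKO (90 to 1307). For STAT3i in WT it gave 2 to 7 (468 to 3614), for the STAT3i interaction 0 to 4 (0 to 1702) and in day 3 dermis 0 to 2 (0 to 3192). At week 1 a library left out leaves a lone library in its group, so no counts are given there. In week 1 epidermis Ccr4 gave -0.97 without icKO library a and 0.92 without icKO library b. Of the single-gene values under an alternative, 911 kept their side of the threshold, 56 lost the call, 20 gained it and 1 reversed with a call. Of the 911, 24 that did not pass changed sign, 16 with a library left out, 5 after quantile normalization and the others with a sex term. The 5 were Ccl20 (0.38), Ccl22 (0.34) and Ccr4 (0.54) in week 1 epidermis, Ccl20 in the tissue interaction (0.15) and Ccr7 for STAT3i in icKO (0.03). The causes were not tested. With 2 libraries per group week 1 results rest on few libraries, and genes under 1 RPKM, such as Ccr10, were mostly not tested.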
